A study of Homo sapiens with 3 samples.

Results

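The BCL2 family genes decide whether a cell releases cytochrome c from its mitochondria, and 10 of them were examined here for active histone marks in H2087, a human cell line established from a lung adenocarcinoma. The 10 genes were chosen by name from the 20163 protein-coding genes of GENCODE v44 on hg19, and the peaks assigned to them were those lying over the gene body or within 50 kb of it. The cells were untreated and were profiled by chromatin immunoprecipitation followed by sequencing (ChIP-seq) with 1 library for histone H3 acetylated at lysine 27 (H3K27ac) and 1 library for histone H3 trimethylated at lysine 4 (H3K4me3). The third library, an input without antibody, was not analysed here. Because a single cell line was sampled once per mark, no value carries a replicate error and no test was made. The number of reads behind the peak lists is unknown, so a gene without a peak may be unmarked or below what the sequencing could detect.

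Proteins of this family share BCL2 homology (BH) domains and are sorted by their roles. The anti-apoptotic members BCL2, BCL2L1 (whose long form is BCL-XL) and MCL1 hold the effectors in check, the effectors BAX and BAK1 form pores in the outer mitochondrial membrane, and the BH3-only members BCL2L11 (BIM), BID, BAD, BIK and PMAIP1 (NOXA) either bind the anti-apoptotic proteins or activate the effectors. H3K4me3 collects around the starts of active or poised genes, whereas H3K27ac lies at active gene starts and at active enhancers away from them.

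The H3K27ac list held 24096 distinct peaks and the H3K4me3 list 18585, with a median −log10 q of 2.65 and 2.97. The −log10 q is the score the peak caller gives a peak against its background. It depends on sequencing depth, so each peak is described by the share of its own list with a lower value, and the scores of the marks are not compared with each other. Markers of the labelled cell type were checked in the same lists. Of 12 lung and epithelial markers, 7 had H3K27ac and 7 had H3K4me3 within 1 kb of the start, including KRT7, KRT8, KRT18, CDH1, FOXA1 and NKX2-1. The neighbours KRT8 and KRT18 shared their strongest H3K27ac start peak, and the H3K4me3 start peak of NKX2-1 was weak (1.58, above 12.4% of its list). NAPSA, SFTPA1, SFTPB and SFTPC had neither mark at the start. No peak of either mark lay at the starts of the 3 neuroendocrine, 3 leukocyte or 3 mesenchymal markers, and SOX2 alone of the 3 squamous markers was marked. Of all protein-coding genes, 23.6% had H3K27ac and 38.2% had H3K4me3 within 1 kb of the start, and 56.8% had neither. Lists of 3 unmarked genes therefore say little about the absence of those lineages.

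The sequence of a marked element away from any start is shown first, because the widest overlap of the marks inside BCL2L1 lies there. It is the middle of that overlap, in the intron close to the start, chr20:30306461-30306760, on the minus strand of hg19, read 5′ to 3′ along the gene.
BCL2L1 near intron overlap: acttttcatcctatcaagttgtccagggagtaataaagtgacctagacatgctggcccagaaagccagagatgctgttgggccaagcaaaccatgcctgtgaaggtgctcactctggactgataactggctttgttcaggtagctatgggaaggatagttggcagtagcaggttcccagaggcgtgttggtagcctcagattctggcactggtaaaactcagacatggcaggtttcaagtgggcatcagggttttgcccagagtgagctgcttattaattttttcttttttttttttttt
None of the 269 overlapping 32-base words of this stretch was found a second time in the assembly. Words that recur matter here because a read lying wholly within one cannot be placed with certainty. A longer read may still be placed, and the length of the reads was not examined. The share of recurring words, sampled along each peak, is given beside the peaks that hold many of them. The whole peaks behind this stretch were less clean than their shared middle, with 31.8% recurring words in the H3K27ac peak and 26.7% in the H3K4me3 peak.

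The next sequences show gene starts with different outcomes. The first is the BCL2L11 stretch where an H3K27ac peak lies wholly inside an H3K4me3 peak, chr2:111877936-111878206, plus strand. The others are the 250 bases before the annotated start of BAX, which carried both marks (chr19:49457822-49458071, plus strand), and of BCL2 (chr18:60987362-60987611, minus strand) and PMAIP1 (chr18:57566978-57567227, plus strand), whose starts carried neither. Capitals mark matches, on either strand, to GGGCGG (the GC box), CCAAT or CACGTG (an E-box), the only searched motifs that occur in these stretches.
BCL2L11 start overlap: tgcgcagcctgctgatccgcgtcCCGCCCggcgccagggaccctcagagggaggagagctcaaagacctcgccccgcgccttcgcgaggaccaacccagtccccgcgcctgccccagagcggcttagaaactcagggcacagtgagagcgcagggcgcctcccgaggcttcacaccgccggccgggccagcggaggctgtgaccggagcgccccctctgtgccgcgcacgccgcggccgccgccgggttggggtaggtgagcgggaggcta
BAX upstream: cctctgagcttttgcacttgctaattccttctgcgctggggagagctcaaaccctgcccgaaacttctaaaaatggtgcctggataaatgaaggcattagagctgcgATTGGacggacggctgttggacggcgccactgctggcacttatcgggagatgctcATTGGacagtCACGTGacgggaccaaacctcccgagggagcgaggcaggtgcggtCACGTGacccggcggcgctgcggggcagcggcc
BCL2 upstream: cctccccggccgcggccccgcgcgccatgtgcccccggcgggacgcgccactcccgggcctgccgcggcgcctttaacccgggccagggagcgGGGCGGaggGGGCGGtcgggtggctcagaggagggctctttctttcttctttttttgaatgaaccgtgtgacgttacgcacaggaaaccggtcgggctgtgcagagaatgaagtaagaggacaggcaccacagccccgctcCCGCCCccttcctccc
PMAIP1 upstream: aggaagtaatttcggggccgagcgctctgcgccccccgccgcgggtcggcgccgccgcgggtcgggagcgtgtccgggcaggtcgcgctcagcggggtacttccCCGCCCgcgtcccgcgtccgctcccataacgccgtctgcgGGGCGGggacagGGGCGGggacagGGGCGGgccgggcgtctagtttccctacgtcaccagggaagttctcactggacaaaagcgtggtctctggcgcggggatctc
The unmarked starts of BCL2 and PMAIP1 were rich in CpG and held GC boxes, with 3 and 4 matches in the printed stretches. None of the 4 stretches held a recurring 32-base word.

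Marks at the gene starts divided the family. H3K4me3 peaks lay within 1 kb of the start of 7 of the 10 genes, BCL2L1, MCL1, BAX, BAK1, BCL2L11, BID and BAD, and the same rule called 38.2% of all protein-coding genes. H3K27ac peaks lay within 1 kb of the start of 4 genes, BCL2L1, MCL1, BAX and BCL2L11, against 23.6% of all genes. At all 4 of these the marks overlapped by at least 1 base, as they did at 15.5% of all genes. BCL2, BIK and PMAIP1 had neither mark at the start, a state shared by 56.8% of all genes. By role, both marks were found at 2 of the 3 anti-apoptotic genes, 1 of the 2 effectors and 1 of the 5 BH3-only genes, while H3K4me3 was found at 2 of 3, 2 of 2 and 3 of 5. With so few genes chosen by name, these counts are a description of the family and not a test of it.

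**Figure D1:**
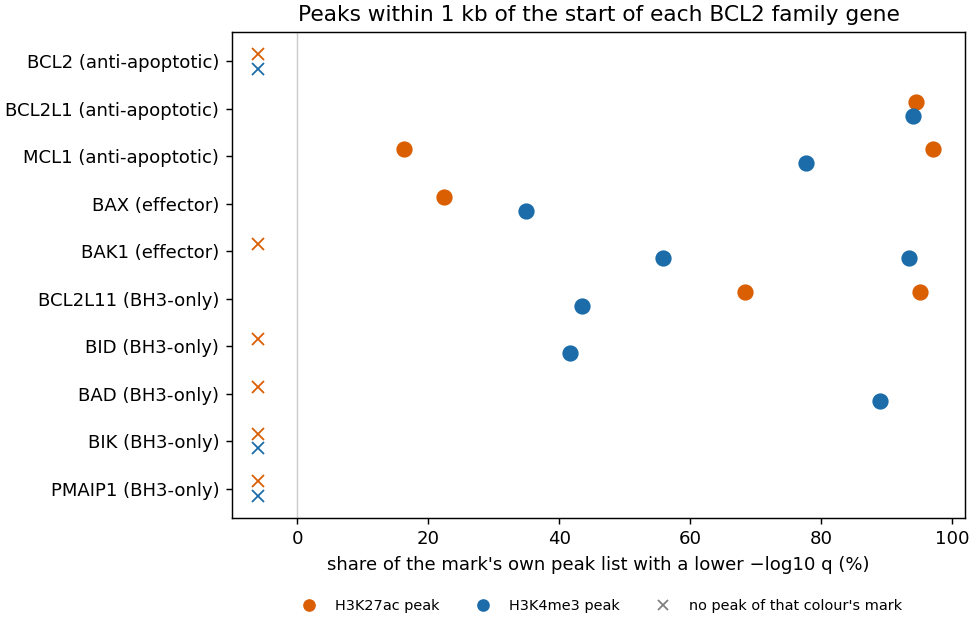
Peaks within 1 kb of the start of each gene, with genes as rows, the share of the mark's own list with a lower −log10 q on the horizontal axis, and 1 point per peak (orange H3K27ac, blue H3K4me3, crosses no peak). The BCL2L1 start peaks of both marks stand above 94.0% or more of their lists, while those of BAX stand above 22.3% and 34.9%.

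The windows held 78 H3K27ac peaks and 51 H3K4me3 peaks. The number per gene ranged from 0 to 24 for H3K27ac, with a median of 4 against 1 over all protein-coding genes, and from 0 to 19 for H3K4me3, with a median of 3.5 against 2. In the windows, 27 H3K27ac peaks (34.6%, against 24.0% in the whole list) overlapped H3K4me3, and 27 H3K4me3 peaks (52.9%, against 31.1%) overlapped H3K27ac. Most of the overlapping peaks lay in 2 windows, that of BCL2L1 with 8 of H3K27ac and 9 of H3K4me3, and that of BAD with 9 and 8. Many of the peaks in the windows were closer to another gene. The member's own start was the nearest protein-coding start for 36 of the 78 peaks of H3K27ac and for 21 of the 51 of H3K4me3. At the edge of the 50 kb limit, the last H3K27ac peaks taken in were 48.9 kb from MCL1 (−log10 q of 1.47) and 47.7 kb from BAD (5.95), and the first ones left out were 51.0 kb from BIK (2.13) and 51.9 kb from BCL2L1 (2.22).

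**Figure D2:**
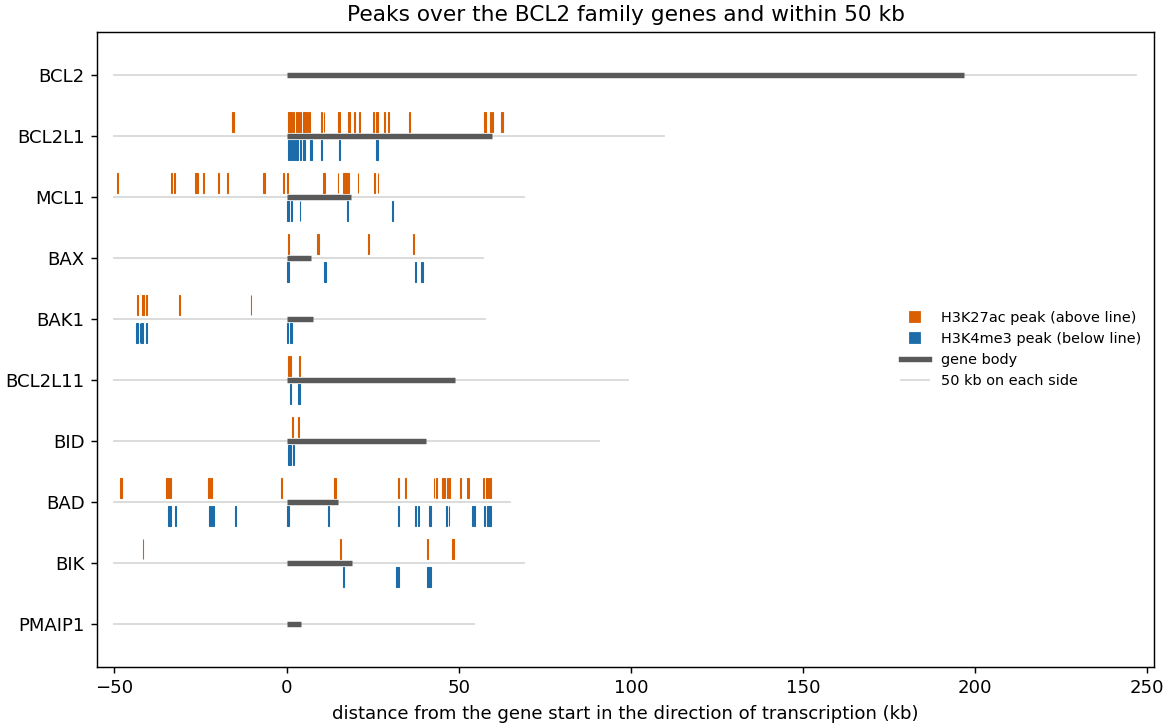
Map of all peaks in the 10 windows, with genes as rows and the distance from the gene start in kb, in the direction of transcription, on the horizontal axis. H3K27ac peaks are drawn above and H3K4me3 peaks below each line, the thick line is the gene body, and the BCL2L1 body holds 21 and 10 peaks where the 197 kb body of BCL2 holds 0 of either.

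BCL2L1 had the most peaks of the anti-apoptotic genes. It lies at chr20:30252255-30311792 on the minus strand, is 59.5 kb long, and had 24 H3K27ac and 10 H3K4me3 peaks in its window. It was 1 of 129 genes with at least that many H3K27ac peaks in the window and 1 of 922 with at least that many of H3K4me3. Within the gene body the counts were 21 and 10, which 28 and 19 genes reached, BCL2L1 included. The peaks covered 9.63 kb and 4.16 kb of the window. For 19 peaks of H3K27ac and all 10 of H3K4me3, the nearest protein-coding start was that of BCL2L1 itself. The window counts are not adjusted for window length, which was 159.5 kb for BCL2L1, 118.8 kb for MCL1 and 114.9 kb for BAD. Per 100 kb of window, BCL2L1 had 15.04 H3K27ac peaks, MCL1 14.30 and BAD 16.54. For H3K4me3 the values were 6.27, 4.21 and 16.54 in the same order. The BCL2L1 values were above those of 98.7% and 92.4% of all protein-coding genes.

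The start peaks of BCL2L1 lay just inside the annotated gene, around the start of the canonical transcript, which is 1121 bp inside the outermost one. The H3K27ac peak spanned chr20:30310335-30311325, was 991 bp wide with 2 summits, and had a −log10 q of 5.57, above 94.4% of its list. The H3K4me3 peak at chr20:30310850-30311323 lay wholly within it and had a −log10 q of 6.90, above 94.0% of its list. A second, weaker H3K4me3 peak at chr20:30310352-30310569 (3.48) also fell in the same H3K27ac peak, over the untranslated exon 1 of the canonical transcript.

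From there a series of H3K4me3 peaks continued into the gene. Of the 10 H3K4me3 peaks, 7 had their centres between 0.706 and 7.08 kb from the start, and the others were at 10.2, 15.4 and 26.2 kb. The peak over coding exon 2, at chr20:30309391-30309924, had a −log10 q of 5.41, above 85.5% of its list, while the H3K27ac peak inside it (chr20:30309711-30309914) had 1.39, above only 1.66% of its own. At 2.98 kb the order was turned, with an H3K4me3 peak of 1.55 (above 6.37%) under an H3K27ac peak of 4.29 (above 84.4%). In all, 9 of the 10 H3K4me3 peaks of the window overlapped H3K27ac, as did 8 of the 24 H3K27ac peaks in the other direction.

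The widest peaks away from any start were in the intron about 5 kb from the BCL2L1 start, where the first printed sequence lies. The H3K27ac peak at chr20:30306090-30306987 was 898 bp wide (−log10 q 3.48) and enclosed the 613 bp H3K4me3 peak at chr20:30306304-30306916 (4.55). The strongest were 26 kb from the start. There the H3K27ac peak at chr20:30285316-30285951 (5.87, above 95.1% of its list) and the H3K4me3 peak at chr20:30285281-30285844 (6.30, above 91.5%) shared 529 bp. At this place 64.5% of the 32-base words of the H3K27ac peak and 63.0% of those of the H3K4me3 peak recurred in the genome. More than 50% of such words were found in only 12.7% of all H3K27ac peaks, and in 9.44% for H3K4me3, and the part of repeated sequence in these peaks was not tested.

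Joined wherever they lay within 10 kb of each other, 19 of the BCL2L1 H3K27ac peaks formed a region of 35.3 kb, chr20:30275998-30311325. Its peaks covered 7.81 kb, which ranked it 44 of 4606 such regions in the genome, and it was 1 of 28 regions with at least as many peaks. The region contained all 10 H3K4me3 peaks and no other protein-coding gene. A separate set of 4 H3K27ac peaks without H3K4me3 lay across the 3′ end of the gene, in part beyond it. The nearest protein-coding start to these peaks was that of COX4I2. The remaining H3K27ac peak of the window was 66 bp from the start of the neighbouring gene TPX2.

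**Figure D3:**
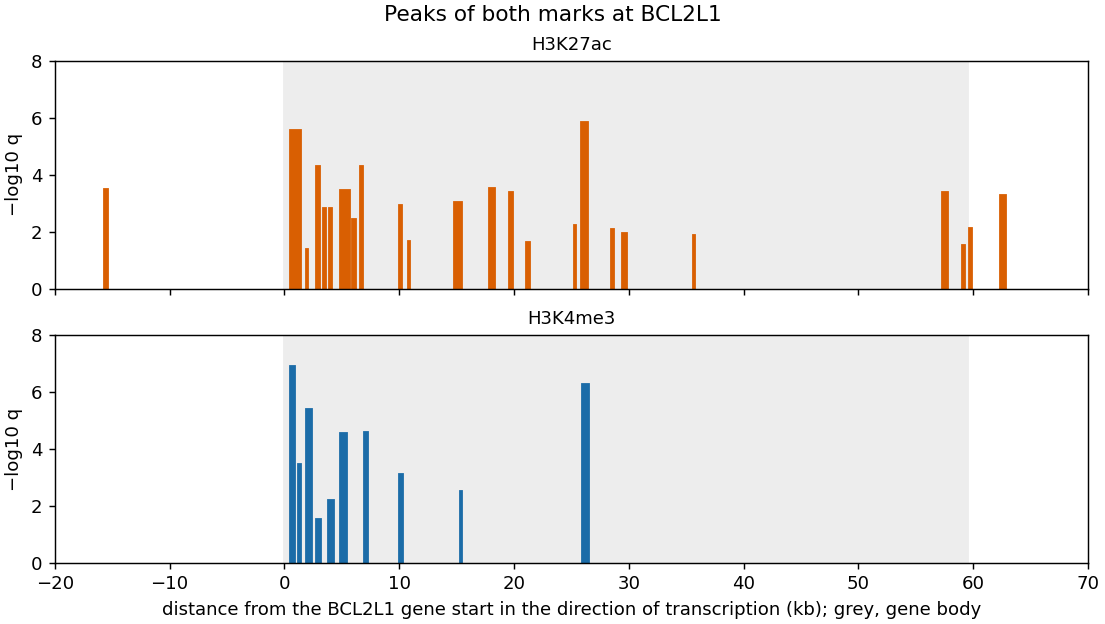
Peaks of H3K27ac (top) and H3K4me3 (bottom) at BCL2L1, with the distance from the gene start in kb on the horizontal axis, bar height giving the −log10 q and bar width the width of the peak, and the gene body in grey. H3K4me3 ends at 26.2 kb with a peak of 6.30, while H3K27ac also has peaks across the 3′ end and just beyond it.

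MCL1, a short-lived anti-apoptotic protein, carried its strongest H3K27ac peaks at both ends of the gene. The gene lies at chr1:150533371-150552214 on the minus strand and had 17 H3K27ac and 5 H3K4me3 peaks in its window. It was 1 of 425 genes with at least that many H3K27ac peaks and 1 of 4278 for H3K4me3. For 8 and 3 of these peaks MCL1 was the nearest start.

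The strongest H3K27ac peak near the MCL1 start lay 617 bp upstream, at chr1:150552831-150553198, with a −log10 q of 6.52, above 97.1% of the list, and did not overlap H3K4me3. Of the words sampled over this peak, 35.3% recurred in the genome. Counted at every base of its middle 300 bases, 43.5% of the words recurred, and 278 of these bases lay in a recurring word. Over exon 1, where none of the words recurred, a weak H3K27ac peak at chr1:150551653-150551959 (1.65, above 16.3%) lay inside an H3K4me3 peak at chr1:150551633-150551993 (4.58, above 77.7%). When peaks with any recurring word were left out, the start of MCL1 kept its call for both marks, but its H3K27ac then rested on the weak peak alone. H3K4me3 was stronger further in, over coding exon 2 at chr1:150550687-150551005 (6.40, above 93.0%), and a peak over the untranslated part of exon 3 (3.37) followed at 3.92 kb.

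At the other end of MCL1, in a part of the annotated gene beyond the canonical transcript, lay the strongest and the widest H3K27ac peaks away from any start. They were at chr1:150534118-150534571 (6.56, above 97.1%) and at chr1:150534775-150535903 (1129 bp wide, 5.92, above 95.2%), and neither held a recurring word. The first enclosed a weak H3K4me3 peak of 243 bp (2.24). Among the outermost starts of protein-coding genes, the nearest to both was that of AL356356.1, 12.2 and 12.9 kb away. Upstream of MCL1 a further 8 H3K27ac peaks stretched towards the neighbouring gene ENSA without any H3K4me3 peak. In 4 of these 8 peaks between 64.7% and 77.8% of the words recurred in the genome.

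BCL2 itself had no peak. Its gene, chr18:60790579-60987361 on the minus strand, is 197 kb long and had the widest window of the family, 297 kb, yet neither list held an interval in it. The nearest H3K4me3 peak was 101.8 kb upstream of the start, 363 bp from the start of VPS4B, with a −log10 q of 2.23. The nearest H3K27ac peak was 3.60 Mb away. The BCL2 promoter was not poor in CpG, with 38 CpG in the 300 bases from 250 before to 50 after the outer start against a median of 18 over 20140 promoters. It held 7 GC boxes, a motif found in 52.2% of promoters, whereas the canonical promoter 359 bp further in held 31 CpG and no GC box.

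Of the effectors, BAX had both marks at the start and BAK1 had H3K4me3 only. BAX, at chr19:49458072-49465055 on the plus strand, had an H3K4me3 peak at chr19:49458164-49458767 over exon 1 (−log10 q 2.49, above 34.9% of the list) and, wholly inside it, an H3K27ac peak at chr19:49458394-49458710 over the first intron (1.89, above 22.3%). Both peaks of BAX were below the median of their lists. Among the 10 family promoters, only that of BAX held CACGTG, with 3 matches, 2 of them in the printed stretch, and 8.34% of all promoters hold this motif. A match of these letters is a description of the sequence and does not show that a factor was bound.

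BAK1 lies at chr6:33540324-33548070 on the minus strand. The H3K4me3 peak over exon 1 at chr6:33547531-33547881 had a −log10 q of 6.54, above 93.3% of the list, and a wider one of 748 bp at chr6:33546370-33547117 lay in the intron behind it (3.21, above 55.8%). The nearest H3K27ac peak was 10.3 kb away with a −log10 q of 2.20. Of the words sampled in the H3K4me3 peaks, 12.5% and 22.2% recurred in the genome, and BAK1 lost its start call when peaks with any recurring word were left out. The BAK1 promoter was poor in CpG, with 5, and of the 6810 promoters with 9 or fewer CpG only 10.1% had H3K4me3 within 1 kb. The other peaks of the BAK1 window lay mostly at ITPR3, the nearest start to the strongest distal H3K27ac peak (chr6:33579145-33579406, 3.54), the widest one (chr6:33591148-33591629, 3.05) and the only distal H3K4me3 peak (chr6:33591259-33591708, 1.88). The distal H3K27ac peak of the BAX window, chr19:49481828-49482016 (2.16), lay over GYS1, and 87.5% of its words recurred.

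Among the BH3-only genes, BCL2L11 was the one with both marks at the start. BIM, its product, binds all anti-apoptotic members. The gene lies at chr2:111876955-111926021 on the plus strand and had 3 H3K27ac and 2 H3K4me3 peaks, all of them within 4 kb of its start and nearest to it. The H3K27ac peak at chr2:111877936-111878206, printed above, had a −log10 q of 5.82, against 2.65 for the median of the list, and was enclosed by an H3K4me3 peak at chr2:111877852-111878210 (2.91, above 43.4%). It lay between the outer start and the canonical one, which is 1536 bp further in. Its edge was 981 bp from the outer start and that of the enclosing H3K4me3 peak 897 bp, both close to the 1 kb limit. With a limit of 500 bp the start kept H3K27ac but not H3K4me3, and within 1 kb of the canonical start both marks were found. Another H3K27ac peak at chr2:111877252-111877604 (3.30) had no H3K4me3 under it, and a weak pair, H3K27ac at chr2:111880519-111880770 (1.55) and H3K4me3 at chr2:111880411-111880739 (2.49), overlapped by 221 bp in the intron.

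BID, which links death receptors to mitochondria once it is cleaved, had H3K4me3 at its start and H3K27ac slightly further in. The gene lies at chr22:18216904-18257536 on the minus strand. Its H3K4me3 peak at chr22:18256333-18257211 was 879 bp wide (−log10 q 2.78, above 41.6%). A second at chr22:18255491-18255767 (3.48) shared 116 bp with an H3K27ac peak at chr22:18255652-18256083 (1.89), 1.45 kb from the outer start. A last H3K27ac peak lay in the intron at chr22:18253996-18254303 (1.55), and 50% of its words recurred in the genome. The outer promoter of BID had only 2 CpG, but that of the canonical transcript had 37.

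BAD, a sensor of growth factor signalling, had an H3K4me3 peak over exons 1 and 2, at chr11:64051572-64052144, with a −log10 q of 5.66, above 89.0% of the list. No H3K27ac lay within 1 kb. The nearest was 1.31 kb upstream, at chr11:64053489-64053738 (2.22), inside the overlapping gene GPR137. The gene, chr11:64037302-64052176 on the minus strand, had 19 peaks of each mark in its window, which placed it among 302 genes with at least as many for H3K27ac and 68 for H3K4me3. Most of these peaks were closer to other genes, and BAD was the nearest start for 1 peak of each mark. The rest lay at genes such as TRPT1, NUDT22, PLCB3, ESRRA and PRDX5. The only H3K27ac peak beyond 3 kb of any start, chr11:64099924-64100471 (5.95, above 95.5%), was nearest to CCDC88B.

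BIK and PMAIP1, whose products bind anti-apoptotic proteins, had unmarked starts in different settings. BIK, at chr22:43506756-43525718 on the plus strand, had peaks of both marks far into the gene, an H3K27ac peak at chr22:43522228-43522575 (−log10 q 3.71, above 77.9%) and an H3K4me3 peak at chr22:43523173-43523412 (2.56, above 38.3%) that did not overlap it. Of the words in the H3K27ac peak, 75% recurred in the genome. The remaining peaks of its window lay over TTLL1 and TSPO or near the start of MCAT, and the widest distal H3K27ac peak was the one in TSPO at chr22:43554885-43555402 (2.48). PMAIP1, at chr18:57567228-57571537 on the plus strand, had none in its window, with the nearest H3K27ac peak 183 kb upstream (4.32) and the nearest H3K4me3 peak 1.99 Mb away (1.55), 216 bp from the start of RNF152. An absence of any peak in the window was found for 23.6% of all protein-coding genes and, in the family, for BCL2 and PMAIP1.

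**Figure D4:**
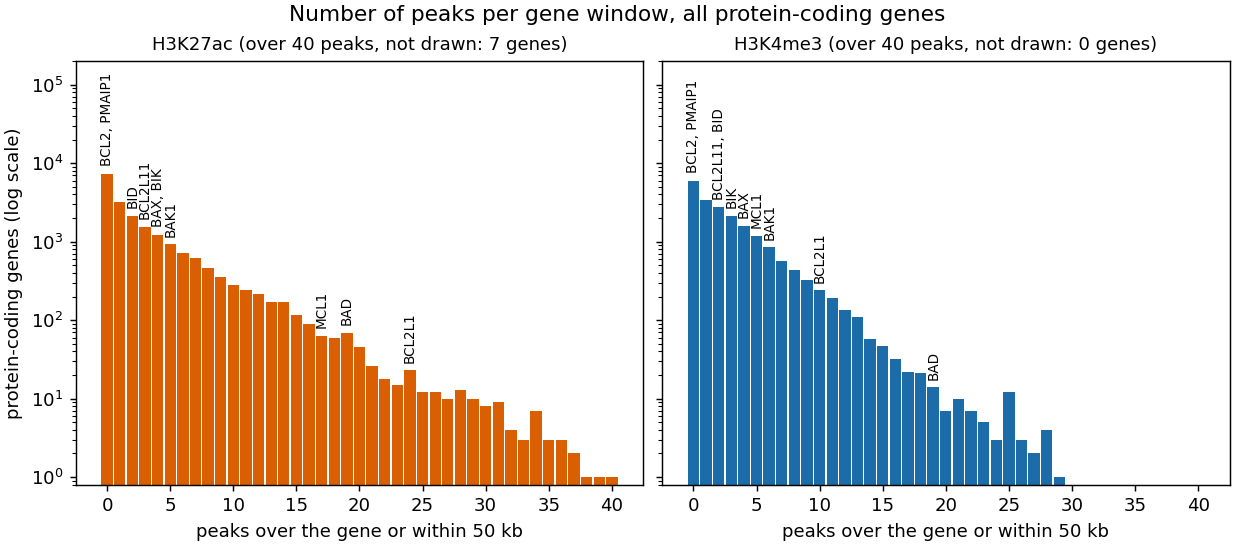
Distribution of the number of peaks in the gene window over all 20163 protein-coding genes (bars, logarithmic vertical axis), for H3K27ac (left) and H3K4me3 (right), with the family members named above the bar of their count. BCL2 and PMAIP1 stand at 0 in both panels, and BCL2L1 and BAD stand in the upper tails.

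Both genes without any peak are on chromosome 18, in a stretch where hardly any gene was marked. Within 5 Mb of BCL2, 0 of 35 neighbouring protein-coding starts had H3K27ac (exact 95% interval up to 10.0%) and 2 had H3K4me3 (5.71%). Within 5 Mb of PMAIP1, the counts were 0 of 43 (up to 8.22%) and 2 (4.65%). These regions overlap in part, and each held 1 H3K27ac peak and 3 H3K4me3 peaks in 10 Mb. On chromosome 18 as a whole, H3K27ac was found at 6.02% and H3K4me3 at 10.9% of its 266 starts. A state of BCL2 and PMAIP1 themselves and a property of the region around them cannot be told apart with the data used here. The copy number of the region, on which the calling of peaks also depends, was not examined.

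The surroundings of the other genes were marked more often. Between 10.4% of neighbouring starts around BAX and 43.7% around BAD had H3K27ac, and between 17.6% around BAX and 56.3% around BCL2L1 had H3K4me3. BIK was unmarked at its start, like the majority of its 132 neighbours, of which 29.5% and 43.9% were marked, and BAX was marked with both although its neighbourhood was the least marked of the remaining 8. BAD had no H3K27ac at its start in the neighbourhood with the highest share of it, and BCL2L11 had both marks where 13.6% and 32.2% of the neighbours did.

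**Figure D5:**
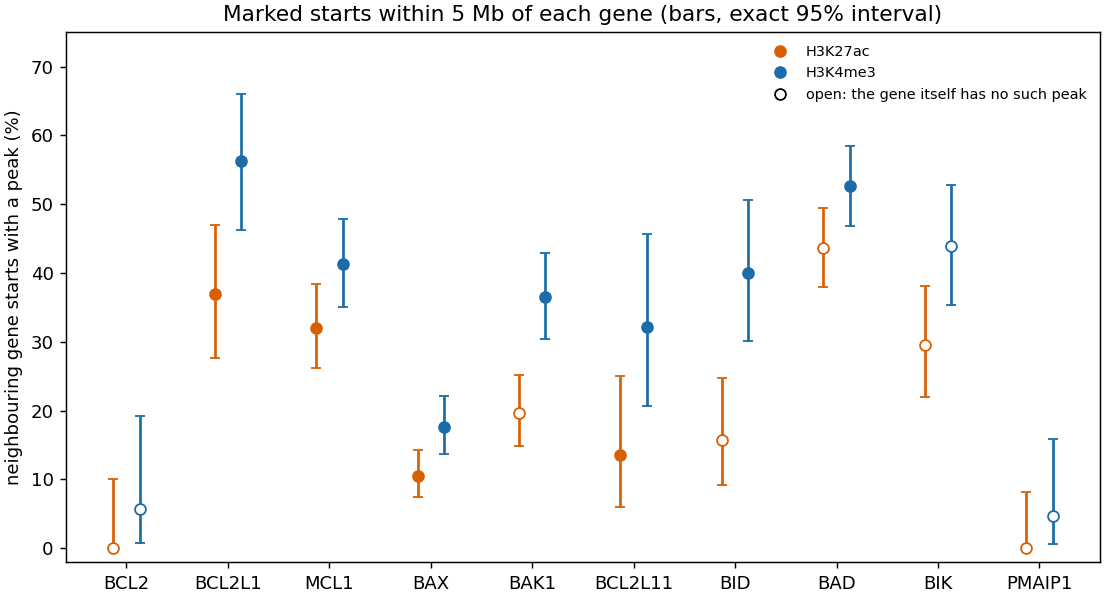
Share of the other protein-coding starts within 5 Mb of each gene that have a peak within 1 kb (vertical axis, %), with the exact 95% interval for that number of starts as bars. H3K27ac is orange and H3K4me3 blue, open points are genes without that mark at their own start, and the shares around BCL2 and PMAIP1 are at most 5.71%.

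The unmarked family members were not those with few CpG. Over all promoters, the share with H3K4me3 within 1 kb of the start rose with the number of CpG, from 10.1% of those with 0 to 9 to 39.3% with 10 to 19, 55.0% with 20 to 29, 61.1% with 30 to 39 and 61.5% with 40 or more. For H3K27ac the shares in the same order were 9.12%, 23.5%, 32.3%, 36.2% and 35.3%. The unmarked genes PMAIP1, BCL2 and BIK had 42, 38 and 31 CpG, and PMAIP1 exceeded 93.7% of promoters. The marked genes ranged from 2 at BID and 5 at BAK1 to 40 at BCL2L11. These counts are for the outer start. At the canonical start BID had 37 and BAK1 had 7, while the unmarked PMAIP1, BCL2 and BIK had 42, 31 and 31. GC boxes were found in 8 of the 10 outer promoters and in 52.2% of all promoters. CCAAT was found in those of BAX, BAK1, BAD and BIK (35.8% of all promoters). CCGGAAG, an ETS-type motif, was in those of BCL2L1 and MCL1 (11.8%). TATAAA was found at BCL2L1 (10.9%). These matches depend on the start chosen. At the canonical start, in the same 300 bases, BCL2L1 held neither TATAAA nor CCGGAAG, and BCL2 held no GC box. There 9 of the 10 promoters held a GC box, beside 61.0% of all canonical promoters. TGANTCA, the AP-1 type motif, and GCATGCGC, the core of the NRF1 motif, were in none of the 10 outer promoters and in 6.37% and 3.77% of all promoters.

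The other genes of the apoptosis pathway were counted in the same way. Of 45 genes in 5 lists, 13 had H3K27ac at the start, 19 had H3K4me3, 12 had both overlapping and 26 had neither, beside the shares of 23.6%, 38.2%, 15.5% and 56.8% of all protein-coding genes. Among 13 further BCL2 relatives, H3K4me3 lay at BMF, BCL2L13 and BNIP3, with H3K27ac at BCL2L13 only, and neither mark lay at BBC3 (PUMA), BCL2L2, BCL2A1, BCL2L10, BOK, HRK, BCL2L12, BCL2L14, BCL2L15 or BNIP3L.

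Of 12 genes listed for the mitochondrial pathway, VDAC1 and VDAC2 among them, 8 had H3K4me3 and 6 had H3K27ac. The shares of all protein-coding genes were 38.2% and 23.6%. APAF1, the scaffold of the apoptosome, had the strongest H3K4me3 start peak of all 45 genes (−log10 q 11.9, above 99.3% of the list), followed by DIABLO (7.20), an antagonist of caspase inhibitors, and BIRC6 (7.09), itself a caspase inhibitor. CASP6, AIFM1 and ENDOG were among those with neither mark. BIRC6 was the only one of 5 caspase inhibitors with a mark, and XIAP, BIRC2, BIRC3 and BIRC5 had none. In the death receptor pathway 3 of 7 genes had H3K4me3, and TNFRSF10A, TNFRSF10B, CASP8 and CASP10 had neither mark. Of 8 genes whose products act on BCL2 proteins or their genes, 4 had H3K4me3, and FOXO3, HUWE1, USP9X and MUL1 had neither mark.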

How the data were processed

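The 10 genes, the other gene lists and the rules were chosen with earlier results of these data known. According to the study's methods and the submitters' processing notes, the authors aligned reads to hg19 with Bowtie 1.1.1 and called peaks with MACS2 2.1.0. Whether reads with several alignments were kept is not given in the sources used here. The deposited lists carry no header, and their last column, which the authors' peak caller wrote for each summit, was read as a −log10 q from its values, whose minimum lies just above that of a q of 0.05. Starts in the lists were taken as counted from 0, as in the BED format.

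An interval listed once per summit was counted as 1 peak with the highest −log10 q of its summits. The start of a gene is the outermost 5′ end annotated in GENCODE v44 lifted to hg19, and a peak within 1 kb of it counts as a start peak. All 20163 protein-coding genes were counted by the same rules as the background. Intervals on shares of neighbouring starts are exact Clopper-Pearson intervals and cover counting error only. Sequences were read from the GRCh37 assembly, and 32-base words were sampled every 20 bases of a peak, and at every base of the printed sequences, and counted over both strands of the assembly. The named peaks are all those within 3 kb of a family member's start and the strongest and widest of each mark beyond 3 kb of any protein-coding start. Of the other lists, the 3 genes with the highest H3K4me3 start peaks and those with neither mark are named, apart from an item that is not reported here. Python 3.11.15, NumPy 2.4.6, SciPy 1.17.1 and matplotlib 3.10.9 were used, and the counting was tested on planted intervals.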

Additional observations from a re-analysis of the deposited data

How the results depend on the processing

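Other settings were tried for 7 counts, giving 44 values, of which 31 stayed within 1.5 times the count in the report. The number of genes with H3K4me3 at the start fell from 7 to 4 when only peaks above the list median were kept, and to 3 (BCL2L1, BAK1 and BAD) at a −log10 q of at least 5, while the share of all genes fell to 26.8% and 10.7%. The number with overlapping marks fell from 4 to 1 with peaks above the median, a setting for which the share of all genes with overlap was not counted. H3K27ac at the start was found for 3 to 6 genes under every setting tried, and within 3 kb it was also found at BID and BAD. Within 3 kb it was found for 6 genes, beside 29.9% of all genes. Above the median it was found for 3, beside 14.9%, and at a −log10 q of at least 5 for 3, beside 3.53%. In both settings these were BCL2L1, MCL1 and BCL2L11. At a −log10 q of at least 5, MCL1 rested on its upstream peak alone, in which 35.3% of the sampled words recurred. BCL2L11 then rested on the peak 981 bp from its outer start, close to the 1 kb limit. The H3K27ac peaks of the windows numbered 34 in the gene bodies, 43 within 10 kb, 44 above the median and 36 when each peak went to its nearest start. For H3K4me3 these numbers were 24, 25, 30 and 21, and 33 with peaks within 1 kb merged. Of the 45 other apoptosis genes, 8 had H3K27ac above the median at the start, beside the same 14.9% of all genes. Leaving out peaks with repeated words, chosen after seeing the data, left 4 genes with H3K27ac and 6 with H3K4me3 at the start, with BAK1 lost. The shares of all genes were then 20.3% and 34.2%, and the windows held 53 and 37 peaks. The causes were not tested. For single genes, 126 of 180 values stayed within the same limit. These include all values of BCL2 and PMAIP1, whose windows stayed empty, and only the wider flank could have added a peak to them.

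No paired analysis was possible because a single library was made per mark. A second library per mark and read counts over the input would be needed to give any of these values an error.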
